A study of Mus musculus with 10 samples.

Results

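Mouse embryonic stem (ES) cells of 2 lines were compared in the state in which neither Pontin nor Oct4 had been removed. The Pontinf/f; CreER line gave the library labelled WT, which had received no treatment (n = 1). The ZHBTc4 line gave 2 libraries (n = 2) taken 4 days after infection with pLKO control lentivirus. These 3 libraries were chosen by their labels out of the 10 samples of the series, of which 8 are mRNA libraries and the others are ChIP libraries of ZHBTc4 cells. In the floxed line an exon of Pontin (Ruvbl1) is flanked by loxP sites and Cre acts only after tamoxifen, so both alleles were intact in WT. The line came from blastocysts of floxed mice backcrossed to C57BL/6. ZHBTc4 cells lack both endogenous Oct4 alleles and live on an Oct4 transgene that tetracycline switches off, and the labels give no tetracycline treatment for the controls. The control vector carries an shRNA against luciferase, and infected cells were selected with puromycin. All cells were grown in serum with LIF. The methods give culture either with fibroblast feeders or without them, and do not say which was used for each library. The line, the infection and selection, the model of sequencing instrument and the table in which the values were deposited differ together between the groups and cannot be told apart by any test here. The labels do not say whether the 2 control libraries came from separate cultures, so p-values measure the spread between them, which may be technical.

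Mouse ES cells in serum and LIF keep Oct4, Sox2 and Nanog and move between a naive state, close to the inner cell mass, and states closer to the epiblast. LIF signals through STAT3 and BMP through SMAD proteins and the Id genes to hold self-renewal, while Nodal, whose inhibitors Lefty1 and Lefty2 are also its targets, and FGF signalling through ERK accompany the move towards the epiblast. ES cells rely on glycolysis, hold E-cadherin junctions and lay down laminin-rich matrix, and vimentin and the fibrillar collagens are low until they leave the epithelial state.

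Levels are given as CPM, reads of a gene scaled to the size of its library, after the deposited CPM of WT and the controls were put on a common scale by the median ratio over 15706 genes above 0 in all 3. The libraries held 17869218 reads on genes in WT, 21245831 in control 1 and 23601776 in control 2. On the common scale, which also carries the authors' own normalization, 1 read was worth 0.04849, 0.04389 and 0.04124 CPM. A difference is log2(CPM + 1) of WT minus the mean of both controls, and it understates the change of genes near 1 CPM. A gene was called higher or lower in WT when the difference was past 0.58 in either direction. limma gave each gene a standard error (SE) and a Benjamini-Hochberg adjusted p, with the spread estimated from the controls and the lone WT library assumed to vary like them. The other 5 mRNA libraries were placed on the same scale to see how each gene was ordered over all 8. These are OHT 3D and OHT 4D, the floxed line 3 and 4 days after tamoxifen and therefore short of Pontin, Tc 2D, the ZHBTc4 line 2 days after tetracycline and therefore short of Oct4, and 2 shlinc1253 libraries of ZHBTc4. WT, both OHT libraries and Tc 2D share the first table, and the 4 lentiviral libraries form the second. The split by table is therefore also the split by infection, selection and instrument, and these cannot be told apart from the table. A gene is said to follow the line where the 3 floxed libraries lay on one side of the 5 ZHBTc4 libraries, to follow the table where the 4 libraries of one table lay on one side of the other 4, and to set WT alone apart where WT lay outside all the others. Genes meeting both of the first conditions are counted as following both, and those following line or table are not counted again for WT alone. Tc 2D is the only bridge between table and line, and because it is depleted of Oct4 its position can also come from that treatment.

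Some differences went with the table, and some with table and line together. For 16 autosomal genes every library of the first table had 0 reads, Tc 2D included, while every library of the second had at least 5 CPM, and 0 genes showed the opposite. One was Zfp141, at 0 reads in the first table and at 94.2, 116, 111 and 128 CPM in the 2 control and 2 shlinc1253 libraries, and 6 of the 16 carry a Zfp name. The 100 highest genes took 12.4% of the reads in WT and 19.5% and 19.8% in the controls. Eef1a1, a translation elongation factor, stood at 3166 CPM in WT, between 2065 and 3252 in the other 3 libraries of its table, and at 12178 and 13291 in the controls. Genes were ordered by level into 10 classes of equal size. The median difference was -0.39 in the lowest class, 0.06 in the fifth and -0.09 in the highest, where the median level was 255 CPM. The read shares and these medians cover WT and the controls only, where line and table differ together. Of the 8 lowest genes, from Gm9000 at -7.01 to Zfp229 at -5.96, 3 followed the table and 5 both. For 4 of these 5 Tc 2D was far above the floxed line and still below the second table: Gm9000 was at 0.727 CPM in WT, 108 at Tc 2D and 248 and 197 in the controls, Gm8730 at 3.69, 203, and 764 and 457, Gm5506 at 2.67, 60.8, and 523 and 332, and Rpl15-ps2 at 0.194, 21.5, and 110 and 80.1. Of the 8, 3 carry a Zfp name and 1, Rpl15-ps2, that of a ribosomal protein pseudogene. Reads of near-identical copies can be split differently in counting, so the values of such genes are uncertain. The part of the tables in the results below was not tested, and for each gene the order of the 8 libraries is given instead.

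All 7 Y-linked genes followed were at 0 reads in WT, and 3 of them, Eif2s3y, Ddx3y and Uty, separated the lines in spite of the table. Eif2s3y, a translation initiation factor gene on the Y chromosome, had 0 reads in WT, 0.146 and 0.047 CPM in the OHT libraries and 55.0 in Tc 2D, against 65.0 and 58.7 in the controls and 61.4 and 50.5 in the shlinc1253 libraries. Against the floor of 3 reads it was at least 425-fold lower in WT than in the controls. Ddx3y was likewise at 0 reads in WT and at 46.9 CPM in Tc 2D and 48.8 and 44.0 in the controls. The other 4 were low in Tc 2D as well, with the first table: Kdm5d was at 0.114 CPM there against 3.20 and 3.38 in the controls, Zfy1 at 0.076 against 2.59 and 2.14, Usp9y at 0.038 against 1.80 and 1.86, and Zfy2 at 0 reads against 0.483 and 0.660. Genes of the X chromosome, 503 above the level limit, had a median difference of 0.19 in WT and of -0.27 in Tc 2D. X and Y genes are left out of all counts that follow.

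Of the autosomes, chromosomes 1 and 16 stood below the rest. The 743 genes of chromosome 1 had a median difference of -0.27 in WT, -0.26 and -0.37 in the OHT libraries and -0.23 at Tc 2D, so that all 4 libraries of the first table lay below the controls there. The 394 genes of chromosome 16 had a median of -0.29 in WT and of -0.27 and -0.31 in the OHT libraries, but 0.06 at Tc 2D, so that of these 4 libraries only those of the floxed line lay that far below the controls. Of the genes of these chromosomes 72.5% and 72.1% were below 0 in WT. The medians of the other 17 autosomes ran from -0.02 to 0.18, the highest on chromosome 14, and between the 2 controls the chromosome medians ran from -0.08 to 0.05 on the autosomes. DNA copy number was not measured.

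**Figure D1:**
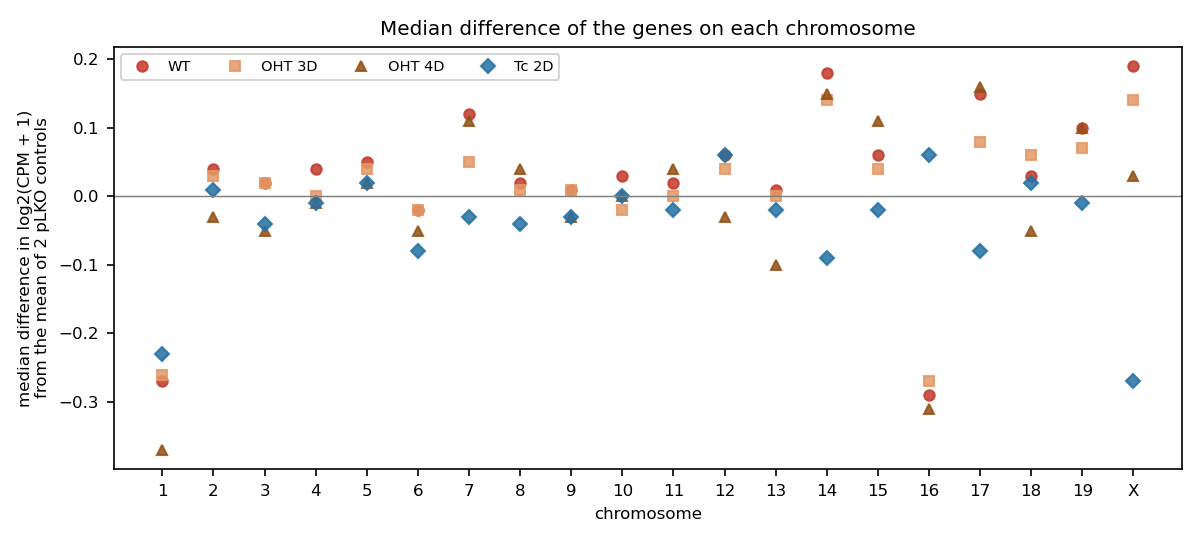
Median difference in log2(CPM + 1) from the mean of the 2 pLKO controls (vertical axis) for the genes above 1 CPM on each chromosome (horizontal axis), for WT, OHT 3D, OHT 4D and Tc 2D. Chromosome 1 lies at -0.23 or below in all 4 libraries, and chromosome 16 at -0.27 or below in the 3 libraries of the floxed line only.

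Over 12793 autosomal genes above 1 CPM in any of the 3 libraries, 1860 were higher in WT (14.5%) and 1787 lower (14%), with a median difference of 0.03. On CPM as deposited, without the common scale, the median lay at -0.15 and the counts were 1259 higher and 2546 lower. Against each control taken singly, 1452 were higher and 1469 lower past the same limit. The controls differed from each other past that limit at 381 genes (2.98%), and the median absolute difference was 0.33 between WT and the controls against 0.16 between the controls. limma called 1996 genes higher (15.6%) and 1836 lower (14.4%) at an adjusted p of 0.05, but 0 in either direction when no filter on low values was used, with 5050 of 17606 genes then under an unadjusted p of 0.05. DESeq2 called 973 higher and 1117 lower. Of the genes higher in WT, 727 followed the line (39.1%), 515 the table (27.7%), 274 both (14.7%) and 182 set WT alone apart (9.78%). Of those lower, 560 followed the line (31.3%), 642 the table (35.9%), 327 both (18.3%) and 166 set WT alone apart (9.29%). Whatever their size, 11.2% of all genes followed the line upwards and 9.27% downwards, 8.56% and 10.1% the table, 3.1% and 3.31% both, and 7.27% and 5.14% set WT alone apart. The counts of patterns in each list below are taken among genes past the limit, so their background is the shares among genes higher or lower in WT given first. Counts of list members higher or lower in WT are to be read beside the 14.5% and 14% of all genes.

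The 8 genes with the largest excess in WT all followed the line. By a fixed rule on size and on agreement against both controls, they were Nphs1 (nephrin), Lefty1, Esrp1, Ap1m2, Gpx2, Dppa3, Nod1 and Kirrel2. Nphs1, a slit-diaphragm adhesion protein of the kidney, was at 139 CPM in WT, 83.3 and 71.4 in the OHT libraries, 0.076 at Tc 2D, 5.22 and 25 in the controls and 4.71 and 20.2 in the shlinc1253 libraries, a difference of 3.46 (limma, SE 0.51, adjusted p = 0.000252). Kirrel2, another member of the nephrin family, was at 67.2 CPM in WT against 4.43 and 13.7 in the controls. Ap1m2, the epithelial adaptor subunit that sorts cargo to the basolateral membrane, was at 88.9 against 4.48 and 20.7. Gpx2, an epithelial glutathione peroxidase, was at 27.4 against 0.439 and 7.26. For each of these 4 genes the floxed line was above every ZHBTc4 library, and control 2 was above control 1. Control 2 was also well above control 1 for Esrp1, Dppa3 and Nod1. Against control 2 alone the differences of all these genes ran from 1.78 (Gpx2) to 2.42 (Nphs1), and against control 1 from 3.63 (Dppa3) to 4.68 (Esrp1). Lefty1 was steady, at 3.43 against control 1 and 3.35 against control 2. For Nphs1, Lefty1, Gpx2, Dppa3, Nod1 and Kirrel2, Tc 2D lay below all the lentiviral libraries. Its place there cannot be told apart from the loss of Oct4.

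Among genes whose tables overlapped, a selection made after their values were seen, the lowest in WT included Steap3, Kank4, Lyn, Ptges, Pdgfrb and Lpl. Steap3, a ferrireductase of iron uptake, was at 4.51 CPM in WT and 8.10 and 7.85 in the OHT libraries, against 47.8 at Tc 2D, 54.0 and 38.5 in the controls and 51.8 and 38.0 in the shlinc1253 libraries (difference -3.08; limma, SE 0.22, adjusted p = 3.44e-07). Lpl, which releases fatty acids from lipoproteins, was at 3.54 CPM in WT against 28.8 and 24.4 in the controls and 52.4 at Tc 2D. Lyn, a Src family kinase, was at 1.02 against 13.6 and 13.0, with 16.3 at Tc 2D. For these 3 genes Tc 2D sat with the other ZHBTc4 libraries. The selection required this of any gene low in all floxed libraries, so the place of Tc 2D does not separate line from table here.

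The core of the pluripotency network was present in both lines. Sox2 was at 497 CPM in WT and 536 and 495 in the controls, Sall4 at 251 against 252 and 240, and Esrrb, an orphan nuclear receptor of the naive network, at 613 against 717 and 619. None of these 3 was past the limit, with differences of -0.05, 0.03 and -0.12. Pou5f1 (Oct4), which ZHBTc4 makes from its transgene, was lower in WT, at 327 CPM against 611 and 558 (difference -0.83; limma, SE 0.17, adjusted p = 0.00211). Nanog was at 399 against 871 and 751 (difference -1.02; limma, SE 0.18, adjusted p = 0.000787). Trim28, a co-repressor that silences transposable elements, was at 956 against 2203 and 2020 (difference -1.14). The OHT libraries stood near WT, at 320 and 373 CPM for Pou5f1 and at 401 and 480 for Nanog, and the shlinc1253 libraries near the controls. Tc 2D, where tetracycline had switched the Oct4 transgene off, was at 22.7 CPM for Pou5f1, 82.1 for Nanog and 636 for Trim28. By the order of the 8 libraries all 3 genes followed the table, but the place of Tc 2D cannot be told apart from the loss of Oct4, so line and table are not separated for them. After the median difference of genes at a similar level was subtracted, Pou5f1 stood at -0.61 and Nanog at -0.74. Of the 10 core genes 0 were higher and 3 lower (0% and 30%), with a list median of -0.23 beside 0.03 over all genes. Ruvbl1 (Pontin) itself was at 215 CPM in WT, 158 and 178 in the controls and 35.9 and 54.6 in the OHT libraries. Its difference between the lines was 0.36 and did not pass (limma, SE 0.16, adjusted p = 0.107).

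Naive-state genes were past the limit more often downwards than upwards. Of 24 kept, 3 were higher and 8 lower in WT (12.5% and 33.3%, beside 14.5% and 14% of all genes), with a median of 0.01. Zfp42 (Rex1), a zinc finger protein long used as a naive marker, was the lowest. At chr8:44380422-44392363 (NCBIM37) it gave 66.6 CPM in WT, 68.1 and 68.8 in the OHT libraries and 82.2 at Tc 2D, against 1151 and 876 in the controls and 1261 and 978 in the shlinc1253 libraries, a 15.2-fold lower level in WT (difference -3.89; limma, SE 0.19, adjusted p = 4.8e-09). All 4 libraries of the first table lay far below the second, and the floxed libraries also lay below Tc 2D. By the definition above Zfp42 therefore followed both line and table. The place of Tc 2D cannot be told apart from the loss of Oct4. Spp1 (osteopontin, 405 CPM against 1013 and 893), Zfp57, a keeper of imprints (185 against 425 and 421), Dppa5a (504 against 1127 and 1008), Klf5 and the LIF receptor Lifr were lower too. These followed the table, with the same limit on the place of Tc 2D. Tbx3, a T-box factor of the naive network, was lower with WT alone apart, at 98.3 CPM against 227 and 174.

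The 3 naive genes that were higher followed the line. Dppa3 (Stella), a maternal factor that protects methylation in the early embryo, was at 60.4 CPM in WT, 29.4 and 61.5 in the OHT libraries and 0.266 at Tc 2D, against 3.95 and 11.9 in the controls and 2.42 and 5.89 in the shlinc1253 libraries (difference 2.94; limma, SE 0.38, adjusted p = 9e-05). Manba, a lysosomal mannosidase, was at 252 CPM against 76.2 and 108, and Pecam1, an adhesion molecule of the inner cell mass, at 133 against 65.4 and 67.3. In all of them the floxed libraries lay above the ZHBTc4 libraries. For Dppa3 the place of Tc 2D, below all the lentiviral libraries, cannot be told apart from the loss of Oct4. Klf2, Klf4, Prdm14, Fgf4 and other naive genes were within the limit, Klf4 at 279 CPM against 215 and 199.

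Among the Nodal, BMP, LIF and ERK lists, the Nodal list had the largest share of genes higher in WT. Of 11 kept members 5 were higher (45.5%, beside 14.5% of all genes) and 0 lower (beside 14%), with a median of 0.53. Of the 5, 4 followed the line and 1 both. Lefty1, a secreted inhibitor of Nodal at chr1:182865153-182868531 (NCBIM37), was at 212 CPM in WT, 65.3 and 120 in the OHT libraries and 0.418 at Tc 2D, against 18.7 and 19.8 in the controls and 37.1 and 25.7 in the shlinc1253 libraries. The difference of 3.39 (limma, SE 0.17, adjusted p = 7.68e-09) is an 11-fold excess, although chromosome 1 as a whole stood below the controls. Lefty2, the second inhibitor, was at 210 CPM against 29.9 and 55.9. The ligand Nodal was at 73.2 CPM against 40.4 and 42.8 and the SMAD partner Foxh1 at 36.5 against 20.2 and 23. The coreceptor Tdgf1 did not differ past the limit, at 735 CPM against 703 and 797. Tc 2D was at or near the bottom for both Lefty genes and for Tdgf1 at 8.40 CPM, so its place among the ZHBTc4 libraries there cannot be told apart from the loss of Oct4.

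Epiblast markers did not move with Nodal as a group. Of 16 formative and primed genes kept 3 were higher and 5 lower (18.8% and 31.2%, median 0.04). Fgf5 and Pou3f1 were under 1 CPM in all 3 libraries. Lef1, a nuclear partner of β-catenin (14.8 CPM against 1.76 and 6.93), Grhl2, an epithelial grainyhead factor (44.5 against 15.1 and 31.0), and Tcf15 were higher. Only 1 of the 3 was past the limit against each control. Fst (1.21 against 4.74 and 6.39), Foxd3 (9.41 against 26.2 and 23.4) and Zic2 were lower and followed the table. Otx2, at 22.2 CPM against 28.9 and 31.5, and Dnmt3b, at 294 against 247 and 356, were within the limit. Of 11 mesendoderm genes only 2 were kept and neither passed. Eomes was at 8.20 CPM against 7.81 and 7.55.

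Of 9 genes of the BMP response 4 were lower and 1 higher (median -0.36), beside 14% lower and 14.5% higher of all genes. Id1, a direct BMP target that blocks differentiation factors, was at 8.39 CPM in WT, 25.3 and 23.8 in the OHT libraries and 33.1 at Tc 2D, against 64.2 and 50.8 in the controls and 66.7 and 62.6 in the shlinc1253 libraries (difference -2.63; limma, SE 0.19, adjusted p = 4.61e-07). WT was the lowest of all 8, and by the definition above Id1 followed both line and table. Id3 (5.14 CPM against 26.8 and 15.1) and the ligand Bmp4 (9.89 against 22.8 and 21.4) set WT alone apart, and Bambi, a decoy receptor, was lower too. Bmp7 was the member higher in WT, at 14.6 CPM against 5.79 and 4.66. Of 11 LIF response genes 4 were lower (36.4%), 3 of them against each control, and 1 higher (9.09%), with a median of -0.32. Socs3, the feedback inhibitor of STAT3 signalling, was at 86.5 CPM against 219 and 159 and followed the line, while Pim1, a kinase that STAT3 induces, was higher at 98.1 against 56.2 and 51.8. In the list of ERK feedback and immediate-early genes 2 of 14 were higher, Dusp5 and Spry1, and 2 lower, with a median of 0.20. These are 14.3% each way, near the shares of all genes, and neither lower gene was past the limit against each control.

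Most genes of the 2-cell-like state, which a small share of ES cells enters at any time, were lower in WT. Of 8 kept members 0 were higher and 7 lower (87.5%, beside 14% of all genes), with a median of -2.99. The remaining member, Eif1a, a translation initiation factor, was at 236 CPM in WT against 223 and 245 in the controls. The summed level of the list, Eif1a included, was 236 CPM against 324 and 331. Zscan4d, Zscan4f and Zscan4c, clustered on chromosome 7, gave 1, 0 and 3 reads in WT against 28.1 and 24.7, 21.0 and 18.4, and 22.7 and 20.8 CPM in the controls. Zscan4f was at least 135-fold lower against the floor of 3 reads. Both OHT libraries and Tc 2D were also at or below 0.244 CPM for these 3 genes, which followed the table. Of the 4 other lower members, Gm6763 and Zfp352 followed the table, and Tdpoz4 and Dub1 both. The Zscan4 genes are near-identical copies whose reads may be split or dropped in counting, and their difference is uncertain for that reason.

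Germline genes that DNA methylation keeps silent were mostly lower in WT. Of 17 kept, 10 were lower and 4 higher (58.8% and 23.5%, beside 14% and 14.5% of all genes). The median was -1.45, but -1.08 with TMM scaling and -0.31 without the genes whose tables do not overlap. Of the lower genes 4 followed the line, 4 the table and 2 both. Mov10l1, a helicase of the piRNA pathway, was at 5.43 CPM in WT and 4.93 and 4.42 in the OHT libraries, against 35.4 at Tc 2D, 40.0 and 34.3 in the controls and 35.8 and 28.1 in the shlinc1253 libraries (difference -2.56; limma, SE 0.20, adjusted p = 7.62e-07). Brdt, Stk31 and Mael followed the line in the same way, Brdt at 1.07 CPM against 8.25 and 7.55 with 8.28 at Tc 2D. Dazl, an RNA-binding protein of germ cells (6.93 against 45.9 and 36.2), followed the table. Stra8, the retinoic acid target of meiosis, was higher at 38.6 CPM against 13.6 and 12.2, and Hormad1, a meiotic chromosome protein, at 27.3 against 11.5 and 12.5. Of the methylation machinery 0 of 12 genes were higher and 4 lower (median -0.27): Tet2, which oxidises methylcytosine, was at 85.1 CPM against 251 and 274, followed by Zfp57, Tet3 and Apobec2. Dnmt3a was within the limit at 163 CPM against 217 and 239.

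Imprinted genes varied in both directions, 7 higher and 4 lower of 22 (31.8% and 18.2%, median 0.13). Grb10, a growth factor receptor adaptor, was at 46.2 CPM against 17.1 and 18.9 and set WT alone apart. Igf2, the fetal growth factor, was at 5.92 against 30.5 and 25.3, with 705 at Tc 2D. Cdkn1c, a cell cycle inhibitor, was lower at 11.2 against 48.0 and 36.1. Peg3 was at 485 CPM in WT, but the controls differed from each other, at 52.0 and 319, and so did the shlinc1253 libraries, at 56.9 and 205, so that the difference of 1.90 had an SE of 0.62 (limma, adjusted p = 0.0337) and was 0.60 against control 2 alone.

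**Figure D2:**
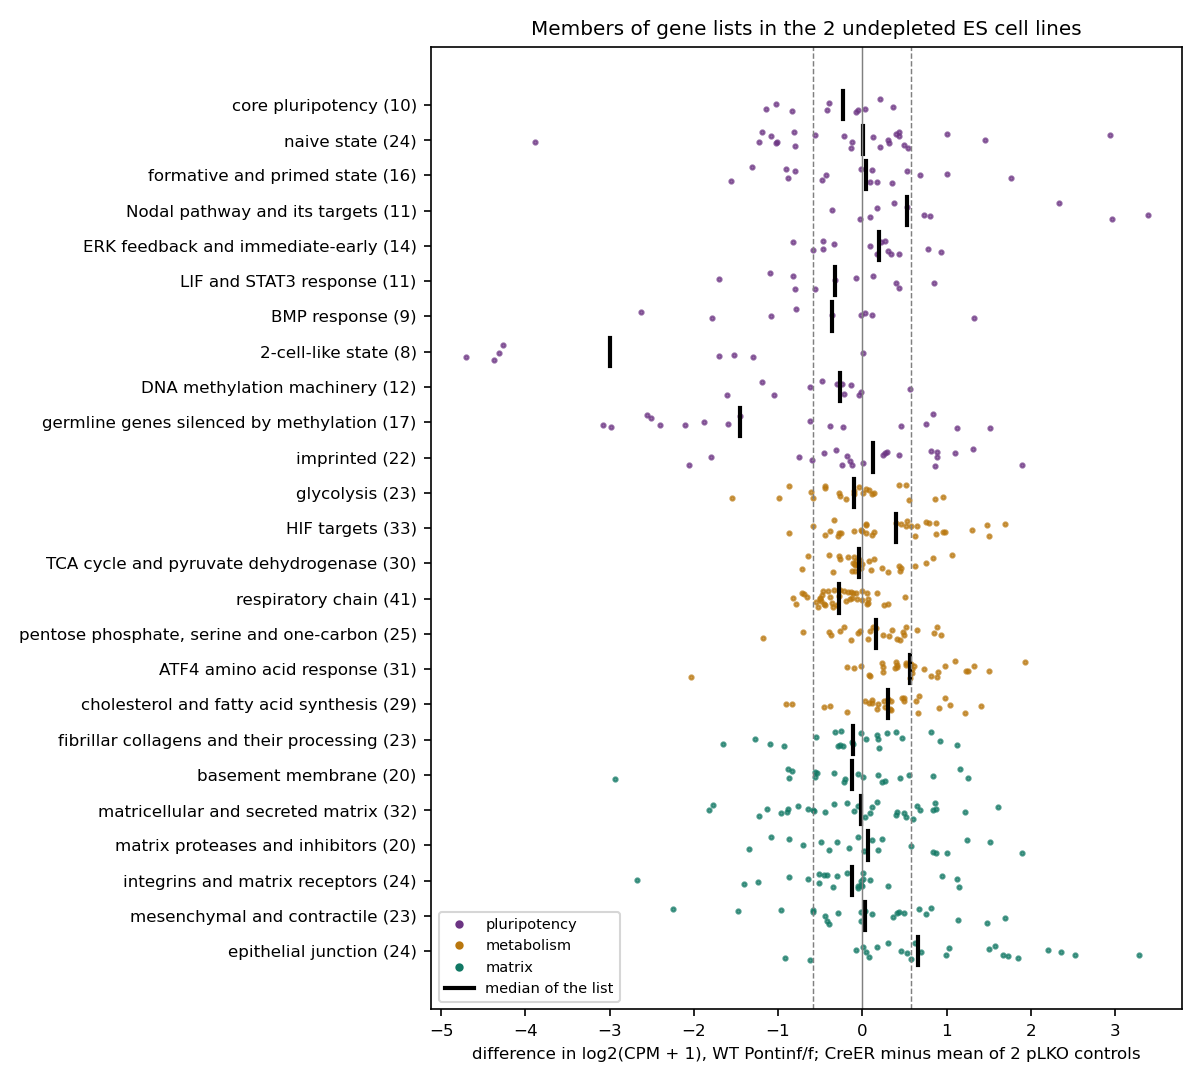
Difference in log2(CPM + 1) between WT and the mean of the 2 pLKO controls (horizontal axis) for each kept member (point) of the lists of pluripotency, metabolism and matrix genes with at least 5 kept members, with the number kept after each name; vertical bars are list medians and dashed lines the limits at 0.58 either way. The 2-cell-like and germline lists lie furthest to the left (medians -2.99 and -1.45), and the epithelial, ATF4 and Nodal lists furthest to the right (0.66, 0.57 and 0.53).

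Egln3, a prolyl hydroxylase that marks the hypoxia-inducible factor (HIF) for destruction and is itself a HIF target, had the largest difference of the HIF targets that set WT alone apart. At chr12:55279968-55304847 (NCBIM37) it was at 61.2 CPM in WT and 21.6 and 21.0 in the controls, while the OHT libraries stood at 13.0 and 15.3, Tc 2D at 20.2 and the shlinc1253 libraries at 14.3 and 12.7. WT was thus alone above the other 7, and the difference was 1.48 (limma, SE 0.18, adjusted p = 4.69e-05), 2.87-fold. HIF binds a short core in the regulatory DNA of its targets, spelled ACGTG in some and GCGTG in others. The 250 bases before the start site are given here for the 3 HIF targets with the largest difference among those that set WT alone apart and had the core there, and for Ldha, a HIF target that went the other way. Sequences are from RefSeq (GRCm38.p6), read along the gene's strand, with these letters in capitals, as well as CACGT where the first core is read on the other strand and CACGC where the second one is. The windows are chr12:54203875-54204124 on the minus strand for Egln3, chr10:59951771-59952020 on the minus strand for Ddit4, chr11:78322823-78323072 on the plus strand for Aldoc and chr7:46845554-46845803 on the plus strand for Ldha.
Egln3: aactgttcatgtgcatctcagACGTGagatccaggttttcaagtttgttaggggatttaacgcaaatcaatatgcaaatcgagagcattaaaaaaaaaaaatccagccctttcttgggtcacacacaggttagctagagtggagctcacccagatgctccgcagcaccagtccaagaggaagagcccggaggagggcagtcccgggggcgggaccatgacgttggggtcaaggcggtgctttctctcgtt
Ddit4: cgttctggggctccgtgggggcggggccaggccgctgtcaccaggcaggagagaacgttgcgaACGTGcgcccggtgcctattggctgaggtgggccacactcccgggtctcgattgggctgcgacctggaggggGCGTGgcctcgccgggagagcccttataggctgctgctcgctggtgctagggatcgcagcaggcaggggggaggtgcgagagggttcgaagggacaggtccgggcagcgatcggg
Aldoc: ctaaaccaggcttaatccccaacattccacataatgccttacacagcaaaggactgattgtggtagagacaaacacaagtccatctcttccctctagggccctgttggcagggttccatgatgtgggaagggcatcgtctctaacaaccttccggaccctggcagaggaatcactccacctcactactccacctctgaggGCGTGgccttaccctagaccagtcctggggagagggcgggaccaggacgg
Ldha: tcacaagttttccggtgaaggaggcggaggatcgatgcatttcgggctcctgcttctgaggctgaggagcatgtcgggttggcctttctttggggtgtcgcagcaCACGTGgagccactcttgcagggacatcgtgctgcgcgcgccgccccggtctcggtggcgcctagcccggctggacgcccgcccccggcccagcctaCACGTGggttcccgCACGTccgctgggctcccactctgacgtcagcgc
Counting both strands, so that CACGTG gives 2 matches that overlap, Egln3 and Aldoc held 1 match, Ddit4 2 and Ldha 5. One of these cores was found in 31 of 38 windows of the kept HIF targets with an entry (26 genes; 81.6%), in 55.9% of the windows of all kept genes with an entry and in 38.6% of all windows. Among the HIF targets higher in WT it was in 13 of 16 windows (10 genes; 81.2%). Egln3, Ddit4 and Aldoc were picked for holding a core, each shown in the first of its windows that had one. Their matches were thus fixed in advance and allow no comparison with Ldha, for which the first window was taken. The windows of the higher targets are part of those of all kept HIF targets. Bhlhe40, Bnip3l and Ndufa4l2 had no entry.

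Of 33 HIF targets kept, 13 were higher in WT (39.4%, beside 14.5% of all genes), 2 were lower and 18 were within the limit. The median was 0.40, but 0.12 on CPM as deposited and 0.16 with a pseudocount of 3, and the summed level of the list was not higher, at 4883 CPM in WT against 5457 and 5037 in the controls. Of those higher, 8 of the 13 set WT alone apart, as 9.78% of all genes higher in WT did. Bhlhe40, a circadian repressor, was at 68.7 CPM in WT against 20.1 and 21.0 in the controls, but at 39.5, 60.0 and 59.1 in the other libraries of its table. Stc2, a secreted glycoprotein, was at 41.7 against 14.5 and 13.6 and followed the table as well. Ddit4, an inhibitor of mTORC1, was at 211 CPM in WT against 120 and 94.2 in the controls and 110, 128 and 119 in the other libraries of its table (difference 0.98; limma, SE 0.17, adjusted p = 0.000907). Bnip3 and Bnip3l, receptors that mark mitochondria for removal, were at 153 against 88.3 and 77.2 and at 157 against 58 and 69.1. Bnip3 was lower in the OHT libraries, at 28.9 and 37.4, than in any lentiviral library. Pdk1, which shuts pyruvate out of the mitochondrion (304 against 168 and 191), Aldoc (26.9 against 12.9 and 13.8) and Ndufa4l2, a hypoxia-induced relative of a respiratory chain subunit (19 against 10.9 and 8.95), also set WT alone apart. The glucose transporter genes did not pass: Slc2a1 was at 394 CPM against 392 and 325 and Slc2a3 at 1096 against 1276 and 1087. Car9, another HIF target, was below 1 CPM in all 3 libraries, at 0.485, 0.614 and 0.990.

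Of 23 glycolytic enzymes kept, 2 were higher and 5 lower (8.7% and 21.7%, beside 14.5% and 14% of all genes), with a median of -0.10. Gapdh was at 1491 CPM in WT against 4331 and 4409, Pkm2, listed under the older symbol of pyruvate kinase, at 2486 against 5051 and 4812, and Ldha, which turns pyruvate to lactate, at 999 against 1880 and 1783. These 3 and Pgam1 followed the table. The OHT libraries stood at 1277 and 1521 for Gapdh, close to WT. Pfkfb3, which sets the speed of glycolysis, was lower and followed the line, at 13.5 against 20.7 and 20.9. Ldhb, the subunit that favours lactate use, was higher at 444 CPM against 259 and 232, but it varied within the floxed line, at 142 and 250 in the OHT libraries. Gapdh, Pkm2 and Ldha have high counts and processed copies in the genome. In the highest of the 10 level classes the median difference was -0.09, but the median level of that class was 255 CPM, far below these 3 genes. After the median difference of genes at a similar level was subtracted, the median of the list was 0.01.

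Most mitochondrial genes of the nucleus were within the limit. Of 41 respiratory chain genes 0 were higher, beside 14.5% of all genes, and 5 lower (12.2%, beside 14%), with a median of -0.28. The lower ones were Atp5g1, Cox5a, Atp5b, Atp5o and Cycs, of which Atp5b was at 1345 CPM against 2223 and 2180. Of 30 genes of the TCA cycle and pyruvate dehydrogenase 4 were higher (13.3%) and 2 lower (6.67%), with a median of -0.04. Idh2, the mitochondrial isocitrate dehydrogenase, was at 213 CPM against 106 and 96.1 and set WT alone apart, while Idh1, its cytosolic counterpart on chromosome 1, was at 104 against 177 and 166. Of the genes on the mitochondrial genome, left out of the counts, 12 above the limit had a median difference of -1.10. Tc 2D, of the other line and the same table, had -1.15. The controls themselves lay apart there, with a median of -0.46 for control 1 minus control 2. In WT mt-Nd5 and mt-Nd6 were not lower, with differences of 0.10 and 0.20.

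Of 31 targets of ATF4, a factor that responds to amino acid shortage and stress, 15 were higher in WT and 1 lower, with a median of 0.57. These are 48.4% and 3.23%, beside 14.5% and 14% of all genes, and 11 of the 15 were past the limit against each control. Of the 15, 5 followed the table, 3 both, 1 the line and 5 set WT alone apart. Nupr1, a stress-induced chromatin protein, was the highest at 41.8 CPM against 9.04 and 11.6 (difference 1.93; limma, SE 0.21, adjusted p = 2.24e-05). Atf5, a factor of the same stress pathway, was at 29.5 against 11.9 and 10.4, the glutamine transporter Slc1a5 at 184 against 74.7 and 79.4, and Pycr1, which makes proline, at 63.5 against 31.6 and 26.8. The exception was Slc7a11, the cystine transporter, at 1.02 CPM in WT and 0.830 and 0.893 in the OHT libraries against 7.33 and 7.13 in the controls (difference -2.03). Atf4 itself was within the limit, at 302 CPM against 219 and 243. Of 25 genes of the pentose phosphate, serine and one-carbon routes 4 were higher and 2 lower (median 0.16). These are 16% and 8%, beside 14.5% and 14% of all genes. Phgdh, the first enzyme of serine synthesis, was at 267 CPM against 154 and 134 and Psph, the last, at 73.4 against 43.0 and 37.5. Rpia, of the pentose phosphate pathway, was lower at 7.90 against 20.7 and 17.9.

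Of 29 genes of cholesterol and fatty acid synthesis kept, 8 were higher in WT (27.6%), 2 lower (6.9%) and 19 within the limit, beside 14.5% higher and 14% lower of all genes. The median was 0.31, and 0.13 on CPM as deposited. Of the 8 higher genes, 3 of the 8 following the line and 5 setting WT alone apart, with 0 following the table. Fdft1 (squalene synthase) was at 164 CPM in WT, 97.1 and 129 in the OHT libraries and 32.7 at Tc 2D, against 54.8 and 68.0 in the controls (difference 1.41; limma, SE 0.17, adjusted p = 5.7e-05). Insig1, the sterol sensor, was at 154 against 75 and 74.3. Hsd17b7 on chromosome 1 was lower, at 11.7 against 23.5 and 21.9.

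Vim (vimentin), the intermediate filament of mesenchymal cells at chr2:13495554-13504453 (NCBIM37), was the lowest of the mesenchymal and contractile list. It was at 37.0 CPM in WT against 206 and 156 in the controls, 4.87-fold lower (difference -2.25; limma, SE 0.18, adjusted p = 1.15e-06). The remaining libraries stood at 117 and 144 with tamoxifen, 130 at Tc 2D, and 195 and 165 with shlinc1253. WT was far below all of them, and the 3 treated libraries of its table also lay below the 4 of the second, so that by the definition above the gene followed the table. The list as a whole was not lower: 6 of 23 were higher and 4 lower (26.1% and 17.4%), with a median of 0.03. Tpm1 and Tpm2 (tropomyosins), Cnn2 (calponin), Lmna (lamin A/C), Tagln and Acta2 (smooth muscle actin) were higher. Acta2 was at 6.40 CPM in WT against 0.263 and 3.18 in the controls, which differed from each other, and at 102 and 120 in the OHT libraries. Snai2 (0.339 against 3.16 and 2.35), Anxa1 and Cald1 were lower. Snai1 was within the limit at 1.07 CPM against 1.89 and 1.73, and Zeb1 was not above 1 CPM.

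**Figure D3:**
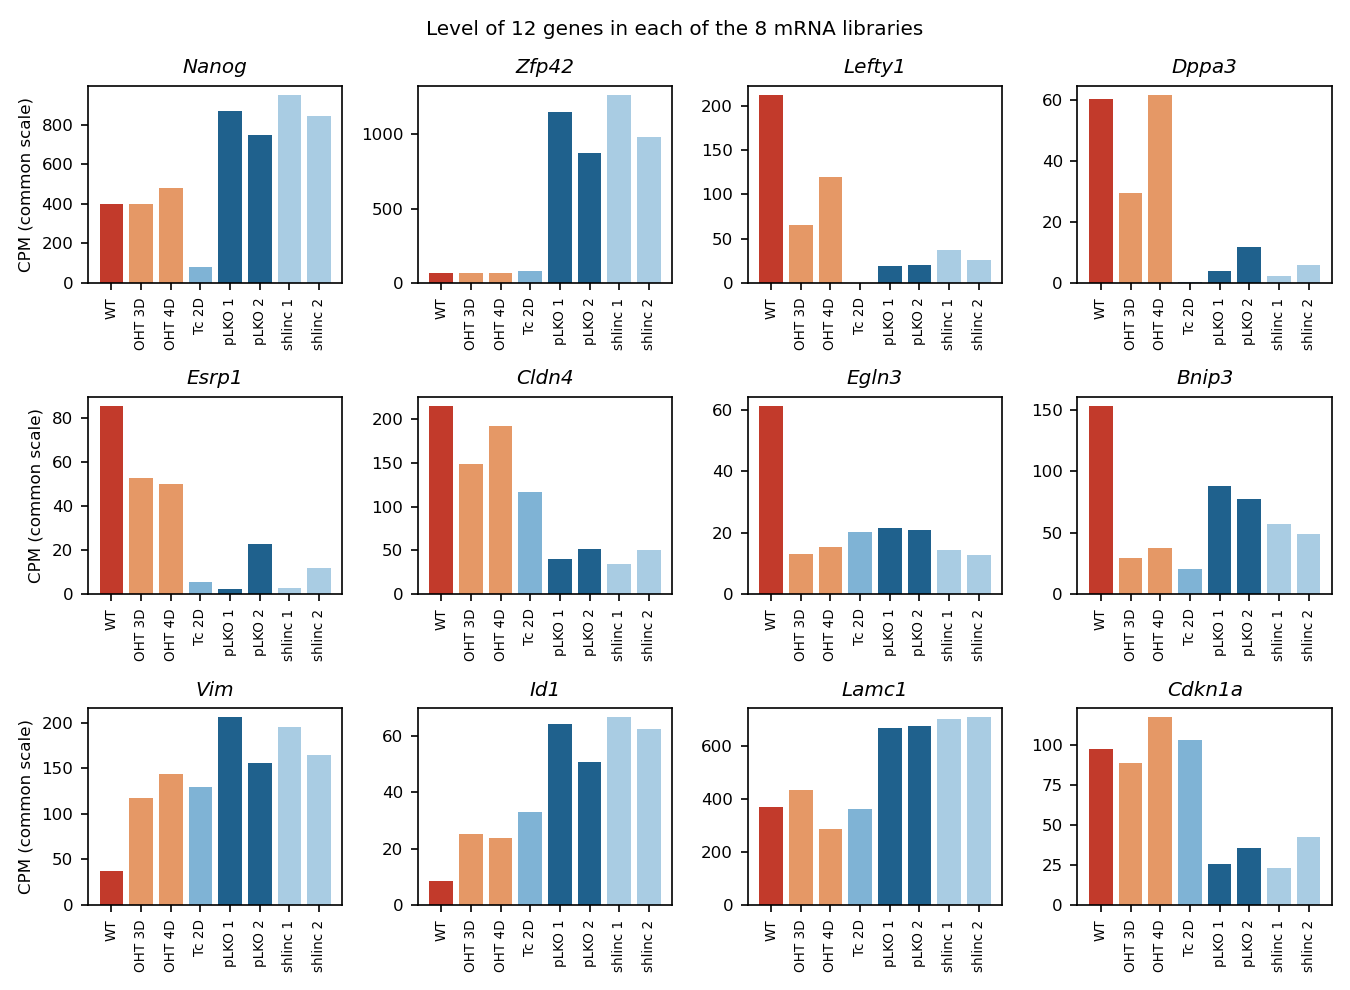
Level of 12 genes in CPM on the common scale (vertical axis, from 0) in each of the 8 mRNA libraries (horizontal axis; 1 bar is 1 library), red for WT, orange for the OHT libraries, light blue for Tc 2D, dark blue for the controls and pale blue for shlinc1253. Egln3 and Vim set WT apart from every other library (61.2 and 37.0 CPM), and Lefty1 and Esrp1 set the floxed line apart. Zfp42 and Cdkn1a set the first table apart from the second, and Zfp42 the floxed line as well.

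Of 24 epithelial junction genes kept, 14 were higher in WT and 2 lower (58.3% and 8.33%, beside 14.5% and 14% of all genes), with a median of 0.66. Of the 14, 6 followed the line, 4 both, 3 the table and 1 set WT alone apart. Esrp1, a splicing factor that fixes the epithelial isoforms of many transcripts, at chr4:11259080-11313930 (NCBIM37), was at 85.3 CPM in WT, 52.6 and 50.0 in the OHT libraries and 5.55 at Tc 2D, against 2.37 and 22.6 in the controls and 2.64 and 11.8 in the shlinc1253 libraries. The controls themselves lay far apart, and the difference of 3.28 had an SE of 0.68 (limma, adjusted p = 0.00278); against control 2 alone it was 1.87. Claudin genes, which seal tight junctions, were higher: Cldn4 was at 215 CPM against 40.6 and 52.0 (difference 2.20; limma, SE 0.18, adjusted p = 1.15e-06), Cldn7 at 35.3 against 4.30 and 8.41, Cldn6 at 85.4 against 17.5 and 30.0 and Cldn3 at 7.66 against 1.97 and 1.81. For Cldn4 the OHT libraries stood at 149 and 193 and Tc 2D at 117, all between WT and the second table. Crb3, of the apical Crumbs complex, was at 25.5 against 2.98 and 4.25, Epcam at 295 against 60.0 and 129, and St14 (matriptase) at 165 against 43.1 and 60.5. Cdh1 (E-cadherin) was just past the limit, at 556 CPM against 324 and 425 (difference 0.58; limma, SE 0.19, adjusted p = 0.0296), but only 0.39 above control 2. Dsp (desmoplakin) was lower at 17.2 against 33.9 and 33.0 and followed the line, and the protease inhibitor Spint1 was lower with WT alone apart. The keratins Krt8 and Krt18 were within the limit, Krt8 at 21.5 CPM against 21.1 and 24.2.

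Matrix genes showed no common direction. Of 23 fibrillar collagen genes and their processing enzymes 3 were higher and 4 lower (13% and 17.4%, beside 14.5% and 14% of all genes), with a median of -0.11. Col5a1, which starts collagen fibrils, was at 7.90 CPM in WT against 32.1 and 22.7, with 26.7 and 29.5 in the OHT libraries and 18.4 at Tc 2D, so that WT alone was apart (difference -1.65; limma, SE 0.22, adjusted p = 0.000128). Col11a1 and Col5a3 were lower and followed the line, and Col5a2 was lower with WT alone apart. Serpinh1, the collagen chaperone, was higher at 84.4 CPM against 39.1 and 37.6 and followed the table, and Loxl2, a collagen crosslinker, was higher at 33.7 against 17.9 and 16.7. Col1a1 was within the limit, at 4.56 against 5.40 and 5.98, and reached 50.1 and 69.3 in the OHT libraries.

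In the basement membrane list 3 of 20 were higher and 4 lower (15% and 20%, beside 14.5% and 14% of all genes), with a median of -0.12. The laminin chains Lama4 (0.339 CPM against 9.70 and 8.82), Lama1 (50.3 against 90.1 and 97.2) and Lamc1 (368 against 668 and 675) were lower, as was nidogen Nid2 (186 against 367 and 298). Lamc1 lies on chromosome 1, and it, Lama4 and Nid2 followed the table. Lama3, the laminin chain of epithelia, was higher at 36.0 CPM against 11.9 and 20.1 and followed the line, and Col18a1 was higher at 544 against 296 and 311. Col4a1 was at 36.1 CPM against 56.3 and 49.8 (difference -0.54) and Fn1 (fibronectin) at 861 against 759 and 862, both within the limit. WT was the lowest of the 8 libraries for Col4a1, where the OHT libraries reached 103 and 139.

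Of 32 matricellular and secreted matrix genes 8 were higher and 10 lower (median -0.01). These are 25% and 31.2%, beside 14.5% and 14% of all genes, so both directions held more genes than the background. The fibrillins Fbn1 (2.42 CPM against 11.5 and 10.7) and Fbn2 (0.679 against 5.44 and 4.12) were lower, Fbn1 following the table and Fbn2 the line. Thbs1 (thrombospondin), the highest, was at 14.8 CPM in WT against 2.11 and 7.67, and at 166 and 146 in the OHT libraries. Fbln1 was at 70.8 against 40.1 and 37.8. Tnc (tenascin C) was past the limit on the mean of the controls only, at 2.76 CPM against 0.0878 and 2.85, and not distinguishable from control 2. Of 20 matrix proteases and inhibitors 7 were higher and 4 lower (35% and 20%, median 0.07). Mmp14, a membrane-bound collagenase, was at 37.9 CPM against 6.85 and 12.8 (difference 1.90; limma, SE 0.28, adjusted p = 0.000213), and Adam19 was at 116 against 36.2 and 43.8; both followed the line. Mmp2, which Mmp14 activates, was lower, at 14.5 against 35.4 and 28.2, and followed the table. Of 24 integrins and matrix receptors 3 were higher and 5 lower (12.5% and 20.8%, median -0.12). Ddr2, a receptor for fibrillar collagen, gave 3 reads in WT and 6.89 and 5.81 CPM in the controls, with 5.96 and 3.76 in the OHT libraries. Ddr1, its epithelial relative, was higher at 51.4 CPM against 23.9 and 28.5, and Itgb4, the integrin of hemidesmosomes, at 14.4 against 5.05 and 7.09. Itgb1 was within the limit at 195 against 167 and 202.

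**Figure D4:**
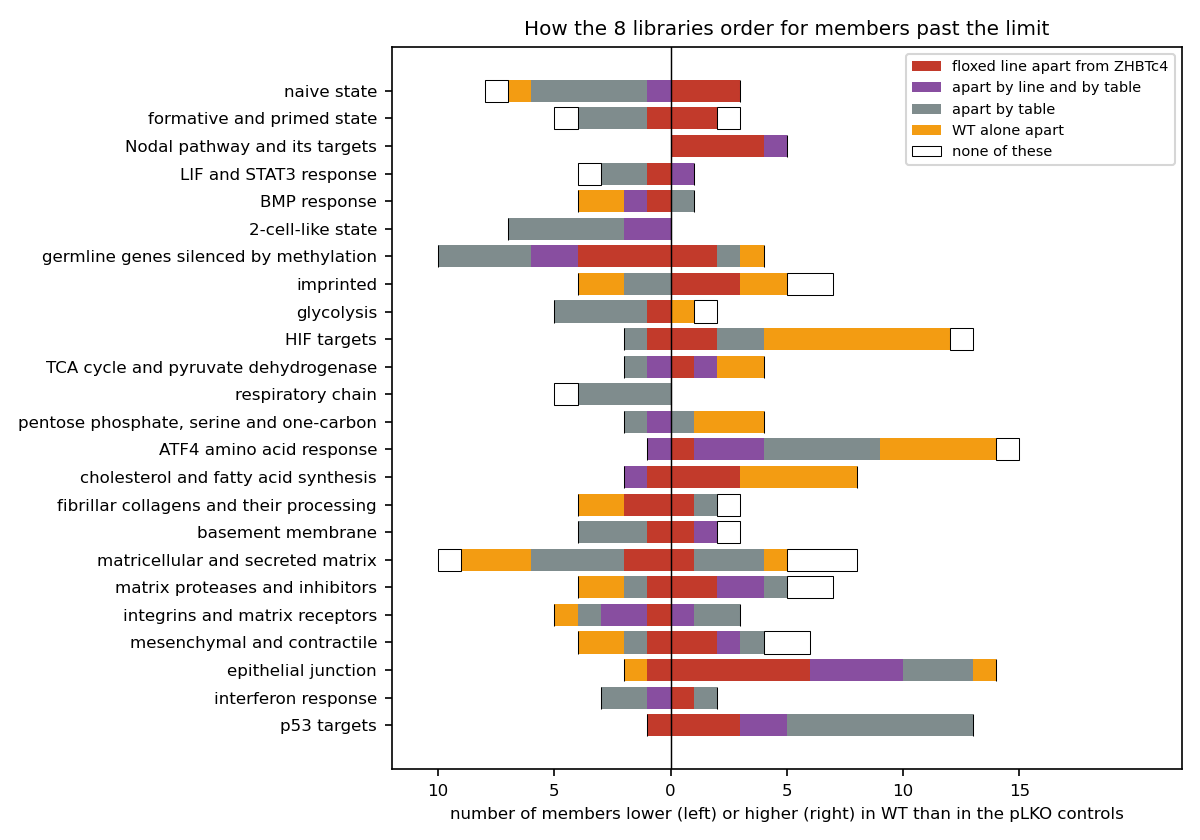
Number of members of each list lower (left of 0) or higher (right of 0) in WT than in the controls (horizontal axis), coloured by how the 8 libraries were ordered, for lists with at least 5 such members. On the higher side, 8 of 13 members of the HIF target list set WT alone apart and 8 of 13 of the p53 target list followed the table. On the lower side, 5 of 7 members of the 2-cell-like list followed the table.

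Of the marker lists of other cells, only part of the members passed the level limit. Of 24 fibroblast markers, which would come from feeder cells, 12 were above 1 CPM, their summed level over the list was 45 CPM in WT and 93.1 and 88.6 in the controls, and it was 294 and 344 in the OHT libraries; Postn, Lum and Dcn were below 1 CPM in all 3. Of the 12, 1 was higher in WT and 6 were lower, with a median of -0.46, and of -1.44 with a level limit of 5 CPM. This moves with the lower matrix genes Fbn1, Ddr2 and Mfap5 that the list shares. The part of feeder cells in those results was not tested. Of 11 primitive endoderm markers kept 1 was higher, Gata4 at 5.72 CPM against 0.834 and 1.69, and 5 lower (median -0.54), and the summed level was 270 CPM in WT and 271 and 310 in the controls. Gata6 and Sox17 were below 1 CPM in all 3. Of 11 trophectoderm markers kept 2 were higher and 2 lower (summed level 129 against 128 and 125 CPM), with Cdx2 and Elf5 below 1 CPM, and of 5 neural markers kept 2 were higher and 1 lower (117 against 82.8 and 80.0 CPM).

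Lists that infection and selection could touch gave a mixed result. Of 25 interferon response genes 11 were kept, 2 higher and 3 lower (median 0.15). Xaf1 (3.88 CPM against 31.2 and 27.0) and Oas1a were among those lower in WT. Xaf1 was at 4.05 and 7.75 CPM in the OHT libraries and 1.56 at Tc 2D, none of them infected. These libraries share the first table, so table and infection cannot be told apart there. The place of Tc 2D, of the ZHBTc4 line, cannot be told apart from the loss of Oct4. Bst2, which tethers viruses to the membrane, was higher at 73.9 CPM against 32.0 and 30.5. Of 18 p53 targets 13 were higher and 1 lower in WT (72.2% and 5.56%, beside 14.5% and 14% of all genes), with a median of 0.74. Cdkn1a (p21), which stops the cell cycle, was at 97.2 CPM in WT, 88.7 and 117 in the OHT libraries and 103 at Tc 2D, against 25.7 and 35.5 in the controls and 23.2 and 42.2 in the shlinc1253 libraries (difference 1.65; limma, SE 0.20, adjusted p = 4.5e-05). Perp (44.3 against 10.7 and 19.1) and Bbc3 (52.8 against 19.4 and 15.5), which act in p53-dependent death, were higher too, and Aen was lower at 64.4 against 182 and 137. Of the 13, 8 followed the table, 2 both and 3 the line, and none set WT alone apart. Only the second table holds infected and selected cells, so table and infection cannot be told apart for these genes. Of 20 proliferation genes 2 were higher, Plk1 and Ccnd2, and 0 lower (median 0.04).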

How the data were processed

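mRNA of 8 libraries was sequenced and the authors deposited CPM in 2 tables of 4 libraries, each normalized on its own. According to the methods, cutadapt trimmed the poly(A) RNA reads, TopHat placed them on NCBIM37 allowing several locations, HTSeq gave the gene counts and edgeR the TMM factors. Within 0.01 read, 100% of the values were whole multiples of 1 read, so reads were recovered. Symbols were matched to 22337 of 22713 IDs. Values were rescaled by median ratios, with scale factors of 0.922 for WT and 1.051 and 1.043 for the controls; without rescaling the median of all genes shifts by -0.17. The pseudocount was 1, the level limit 1 CPM in any of the 3 libraries and the limit of a call 0.58. The trend method of limma 3.58.1 was applied to the log2 values in R 4.3.3. As alternatives, edgeR 4.0.16 and its quasi-likelihood test, and DESeq2 1.42.0, took the recovered reads. The scripts were tested on simulated data. Depth was 17869218 to 23601776 reads in the 3 libraries, and the floor of 3 reads covers counting error only, as PCR copies of a molecule could not be told from others.

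Members, gene lists and tests were chosen with earlier results of these data known. Named genes were Vim, Egln3, Ruvbl1, Pou5f1, Sox2, Nanog and Y-linked genes, the 8 highest and 8 lowest with a mean of at least 5 CPM that differed the same way past the limit from each control, and in each list up to 3 members with the largest difference in the direction of the list median and the largest the other way. Other genes were named after their values were seen. Left out were the ChIP files and columns of other samples beyond the ordering over 8 libraries. Python 3.11.15 with numpy 2.4.6, pandas 2.3.3 and matplotlib 3.10.9 was used.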

Additional observations from a re-analysis of the deposited data

How the results depend on the processing

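No paired analysis was possible because WT is 1 library and shares no replicate pairing with the 2 controls. The counts of genes higher and lower past the limit, 1860 and 1787, became 671 and 725 with a limit of 1, and 1071 and 818 without the genes whose tables do not overlap, an alternative chosen after seeing the data. Genes lower numbered 1187 with a pseudocount of 3 and 1153 with a level limit of 5 CPM, where fewer genes near the limit remain. Without 1 control replicate the counts ran from 1772 to 2031 higher and from 1647 to 2045 lower. limma called 1996 and 1836. On CPM as deposited it called 1327 higher and 2800 lower, which moves the balance towards lower as the median does, and DESeq2 called 973 and 1117 and edgeR 1636 and 1719. With no filter on low values limma called 0 in either direction among 17606 genes, at a smallest adjusted p of 0.0973, while 5050 passed an unadjusted p of 0.05. This cause was not tested. Without control replicate 1 or 2, in a fit with the shlinc1253 libraries added after seeing the data, it called 1554 and 2135 higher and 1537 and 2032 lower.

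Genes following the line, those following both included, numbered 1826 upwards and 1610 downwards. They were 2921 and 2904 without Tc 2D, 3561 and 2841 without the OHT libraries, where fewer libraries need to be in order. On CPM as deposited they were 1172 upwards and 2246 downwards, so that the balance turned from more genes upwards to more downwards.

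The 2-cell-like median of -2.99 was -3.71 and -1.87 with pseudocounts of 0.5 and 3, -2.84 after matching genes by level, -4.31 with the limit at 5 CPM, and without the genes whose tables do not overlap, which removes all 7 lower members, the only gene left, Eif1a, was at 0.01. The naive median of 0.01 was -0.30 on CPM as deposited, -0.12 at 5 CPM and 0.31 without those genes, and 0.01 and -0.14 without control replicates 1 and 2. The HIF median of 0.40 was 0.16 with a pseudocount of 3, 0.12 on CPM as deposited, 0.28 with TMM and 0.49 at 5 CPM, and 0.30 to 0.42 without 1 control. The respiratory median of -0.28 was -0.46 on CPM as deposited and -0.12 without those genes, and the epithelial median of 0.66 was 0.49 and 0.52, and 0.62 to 0.79 without 1 control. On CPM as deposited the medians of chromosomes 1, 16 and X were -0.45, -0.46 and 0.02, and X was at 0.30 with a 5 CPM limit. Without 1 control, chromosome 1 ran from -0.30 to -0.27, chromosome 16 from -0.29 to -0.27 and X from 0.10 to 0.22. Of 269 single genes past the limit, 26 were within it on CPM as deposited, 31 with a pseudocount of 3 and 26 after matching by level. Without control replicate 1, 21 were within it and Tnc changed sign, to -0.03, against 1.79 without control replicate 2.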

Other observations

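Several genes outside the lists set WT alone apart from the other 7 libraries. Atp6v0a4, a proton pump subunit of acid-secreting epithelia, was at 20.8 CPM in WT, at 7.13, 5.22 and 2.81 in the other libraries of its table, and at 3.99 and 5.86 in the controls (difference 1.90; limma, SE 0.24, adjusted p = 8.09e-05). Ptch1, the Hedgehog receptor and itself a Hedgehog target, was at 135 CPM against 48.3 and 57.8. Trh, the thyrotropin-releasing hormone gene, was at 118 against 41.8 and 49.6, with 51.0 and 110 in the OHT libraries and 0.266 at Tc 2D. On the lower side Cpe, a carboxypeptidase of hormone processing, was at 8 CPM against 25.3 and 21.6, and Htra1, a secreted serine protease, at 21.8 against 59.4 and 48.0. These 5 were chosen after their values were seen.

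At some genes the lentiviral libraries numbered 1 and 2 differed in the same direction in the controls and with shlinc1253. Esrp1 was at 2.37 and 2.64 CPM in the libraries numbered 1 and at 22.6 and 11.8 in those numbered 2, Peg3 at 52.0 and 56.9 against 319 and 205, Acta2 at 0.263 and 0.171 against 3.18 and 16.9, and Olig2, a neural progenitor factor, at 0 and 0.122 against 3.51 and 2.30. WT was above all 4 libraries for Esrp1, Peg3 and Olig2, and Acta2 at 6.40 CPM lay within their range. The other direction was seen too: Zfp42 was at 1151 and 1261 CPM in the libraries numbered 1 and at 876 and 978 in those numbered 2, and Id3 at 26.8 and 27.7 against 15.1 and 16.2. These genes were chosen after their values were seen. What the replicate numbers mark was not tested.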
